A study of Homo sapiens with 27 samples.

Results

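The 10 genes described here are textbook targets of the hypoxia-inducible factors (HIF), followed by poly(A)-tail sequencing in prostate cancer cells depleted of CPSF1. The set was SLC2A1, VEGFA, BNIP3, BNIP3L, PDK1, P4HA1, ANKRD37, NDRG1, EGLN1 and EGLN3, chosen by name as HIF targets that are not enzymes of the glycolytic chain. All 10 were found in each of the 4 deposited tables, which list 19540 genes for 3′ UTRs, 20268 for coding exons (CDS), 20216 for introns and 20266 for the 10 kb downstream of a gene. The question was whether lower poly(A)-site counts of glycolysis genes after CPSF1 depletion go together with lower counts of other HIF targets.

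HIF is a heterodimer of an oxygen-labile alpha subunit, such as HIF1A or EPAS1, and the stable partner ARNT. When oxygen is plentiful, prolyl hydroxylases of the EGLN family hydroxylate the alpha subunit, the von Hippel-Lindau protein VHL recognises the hydroxylated form, and the subunit is degraded. When oxygen falls, or when signalling raises the alpha subunit, the heterodimer binds short ACGTG or GCGTG elements and activates genes for glucose uptake, glycolysis, vessel growth, mitochondrial turnover and matrix remodelling, together with EGLN genes that feed back on the pathway.

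The 27 libraries were made by Poly(A)-ClickSeq (PAC-seq), a method that reads mRNA 3′ ends where the poly(A) tail begins, from 3 human prostate cancer lines. LNCaP depends on androgen, LNCaP95 was derived from it and no longer needs androgen, and 22Rv1 is hormone-insensitive. In each line, 3 libraries carried a non-silencing hairpin (CTRL sh), 3 carried CPSF1 sh1 and 3 carried CPSF1 sh2, all delivered by lentivirus. CPSF1 is a subunit of the complex that recognises the poly(A) signal. Every library, controls included, came from puromycin-selected cells, so each group was a stably transduced pool rather than a clone. LNCaP and 22Rv1 were grown in RPMI medium with serum and LNCaP95 in the phenol red-free form of that medium, so differences between LNCaP95 and the other lines cannot be told apart from medium. None of the labels describes a low-oxygen treatment. The titles number 3 biological replicates per group but do not say how they were separated, so p-values measure the spread between these libraries.

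Libraries held 3452413 to 12425417 reads over the 4 tables, with 1725670 to 6549383 reads in 3′ UTRs and 170330 to 728430 in 10 kb regions. The shallowest library was CTRL sh replicate 1 of 22Rv1. The 22Rv1 controls also held the lowest correlation between replicates, 0.929, beside lowest values of 0.942 to 0.987 in the other groups. CPSF1 3′ UTR levels, as scaled counts (CPM, read counts scaled by library size), were 137 to 184 in LNCaP controls and 53 to 98.4 after knockdown, 66.2 to 110 and 34.1 to 60.4 in LNCaP95, and 134 to 202 and 85 to 114 in 22Rv1, with no overlap in any line. CPSF1 fell by 1.19 ± 0.168, 1.05 ± 0.182 and 0.73 ± 0.143 on the log2 scale (± SE, adjusted p = 8.31e-05, 0.000301 and 0.0164), with the smallest fold change in 22Rv1. The change in 22Rv1 minus that in LNCaP (0.48 ± 0.259) or LNCaP95 (0.33 ± 0.26) did not pass the line-by-knockdown test (adjusted p = 0.317 and 0.457). All 9 markers of luminal prostate epithelium exceeded 2 CPM in each line, while leukocyte markers summed to at most 0.679 CPM and the 1 endothelial marker in the table to at most 0.682 CPM. The summed luminal markers went from 6840–7050 CPM in controls to 4730–5390 after knockdown in LNCaP, from 9250–10200 to 5640–6930 in LNCaP95, and from 3180–3680 to 3360–4240 in 22Rv1. Basal markers, with KRT5 at 0 in every LNCaP and LNCaP95 library, summed to 1.02–1.97 CPM in controls and 2.05–6.63 after knockdown in LNCaP, to 0.558–2.67 and 2.78–5.43 in LNCaP95, and to at most 0.471 in 22Rv1. Stroma markers summed to 13.4–20.8 CPM in LNCaP controls and 8.19–14.4 after knockdown, while the LNCaP95 sums were 35.2–41 and 26.1–36.2 and the 22Rv1 sums 5.82–10.6 and 7.57–11.9. The part of these markers in the results was not tested. In such bulk libraries, fewer cells of a type and less RNA per cell cannot be told apart.

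The promoters show where the binding element of HIF lies in these genes. Of the members, 7 had a promoter in the RefSeq table of GRCh38.p14 (250 bases before to 50 after the start), and no entry was matched for VEGFA, BNIP3L and NDRG1. The letters ACGTG were searched on both strands, so that CACGT on the printed strand is the same element read from the other strand and CACGTG holds both. Of 35116 promoters in the table, 21.4% held ACGTG, 36.5% held GCGTG and 7.26% held CACGTG. BNIP3, PDK1, P4HA1, ANKRD37 and EGLN1 held ACGTG in a promoter, which is 5 of the 7 members. These members had 8 promoters, because PDK1 had 2, and the PDK1 promoter at chr2:172555123-172555422 held no ACGTG. The shares over the table count promoters rather than genes. SLC2A1 and BNIP3 held GCGTG, and EGLN3 held neither in this window. The stretches around the element are shown for those 5 genes, 5′ to 3′ on the strand of the gene, with the element in capitals in either orientation. The first capital letter lies the given number of bases before the start of the gene. The stretches are chr10:131982040-131982069 (minus strand, 134 bases) for BNIP3, chr2:172556065-172556089 (plus strand, 17 bases) for PDK1, chr10:73096935-73096964 (minus strand, 86 bases) for P4HA1, chr4:185396676-185396705 (plus strand, 162 bases) for ANKRD37 and chr1:231422288-231422312 (minus strand, 13 bases) for EGLN1.
BNIP3 promoter: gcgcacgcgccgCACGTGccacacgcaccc
PDK1 promoter: ctgcccgcCACGTccctCACGTacc
P4HA1 promoter: tgtgatcgagctCACGTagcgagggctgca
ANKRD37 promoter: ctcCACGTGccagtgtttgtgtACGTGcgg
EGLN1 promoter: gggccgtggtgtACGTGcagagcgc
PDK1 carried the element at 2 places 4 bases apart and ANKRD37 at 2 places within one stretch. A match describes the letters and is not evidence of binding, and a window without a match says only that the letters are not in it.

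Because CPSF1 acts at the other end of the transcript, the poly(A) signal next to the end of the annotated 3′ UTR was read from the GRCh37 genome for the same 7 members. The hexamers AATAAA and ATTAAA, the usual and the most common variant form, were searched on the gene's strand in the last 61 bases before that end. For ANKRD37 the 3′ UTR end was 186321395, whereas its counted introns reached 186321782, and the bases beyond the 3′ UTR end were not searched. SLC2A1 (chr1:43391052-43391081, minus strand), BNIP3 (chr10:133781586-133781615, minus strand) and EGLN3 (chr14:34393437-34393466, minus strand) held AATAAA. ANKRD37 (chr4:186321366-186321395, plus strand) and EGLN1 (chr1:231499509-231499538, minus strand) held ATTAAA. PDK1 and P4HA1 held neither hexamer in this window. The hexamer is in capitals.
SLC2A1 end: aatactggaggaAATAAAacaccaaagata
BNIP3 end: ttgtccaaAATAAAtattgtggccttatat
EGLN3 end: gtaaatacttgttgAATAAActcagtctcc
ANKRD37 end: ttttaagttATTAAAggaacgtctaaaaaa
EGLN1 end: ctaatctaATTAAAaagatgtataaatgtt

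CPSF1 knockdown lowered the 3′ UTR counts of most of these HIF targets in LNCaP and LNCaP95 and of fewer of them in 22Rv1. In all, 8 of 10 members fell in LNCaP, against 10.1% of all tested genes, and 10 of 10 fell in LNCaP95, against 15.2%. In 22Rv1, 4 of the 9 tested members fell, against 0.791%. No member rose in any line: 0 were called higher by edgeR or DESeq2 and 0 had a higher value at an unadjusted p under 0.05, where 8.24%, 15.2% and 0.678% of all genes were called higher. Over the members, the median log2 fold change in LNCaP was -1.06, with -1.42 in LNCaP95 and -0.435 in 22Rv1, beside medians of 0.0151, 0.0138 and -0.0083 over all tested genes. BNIP3, BNIP3L, PDK1 and P4HA1 fell in all 3 lines, VEGFA, ANKRD37, EGLN1 and EGLN3 in LNCaP and LNCaP95, and SLC2A1 and NDRG1 in LNCaP95. Counting libraries rather than using the model, all 6 knockdown libraries lay below all 3 controls for 8 of 10 members in LNCaP (11.4% of all genes), 10 of 10 in LNCaP95 (14.3%) and 3 of 9 in 22Rv1 (4.11%). The 22Rv1 calls were the least stable, with 0 to 5 members called when a single library was left out. None was called there without CTRL sh replicate 2, CPSF1 sh2 replicate 1 or CPSF1 sh2 replicate 3.

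**Figure D1:**
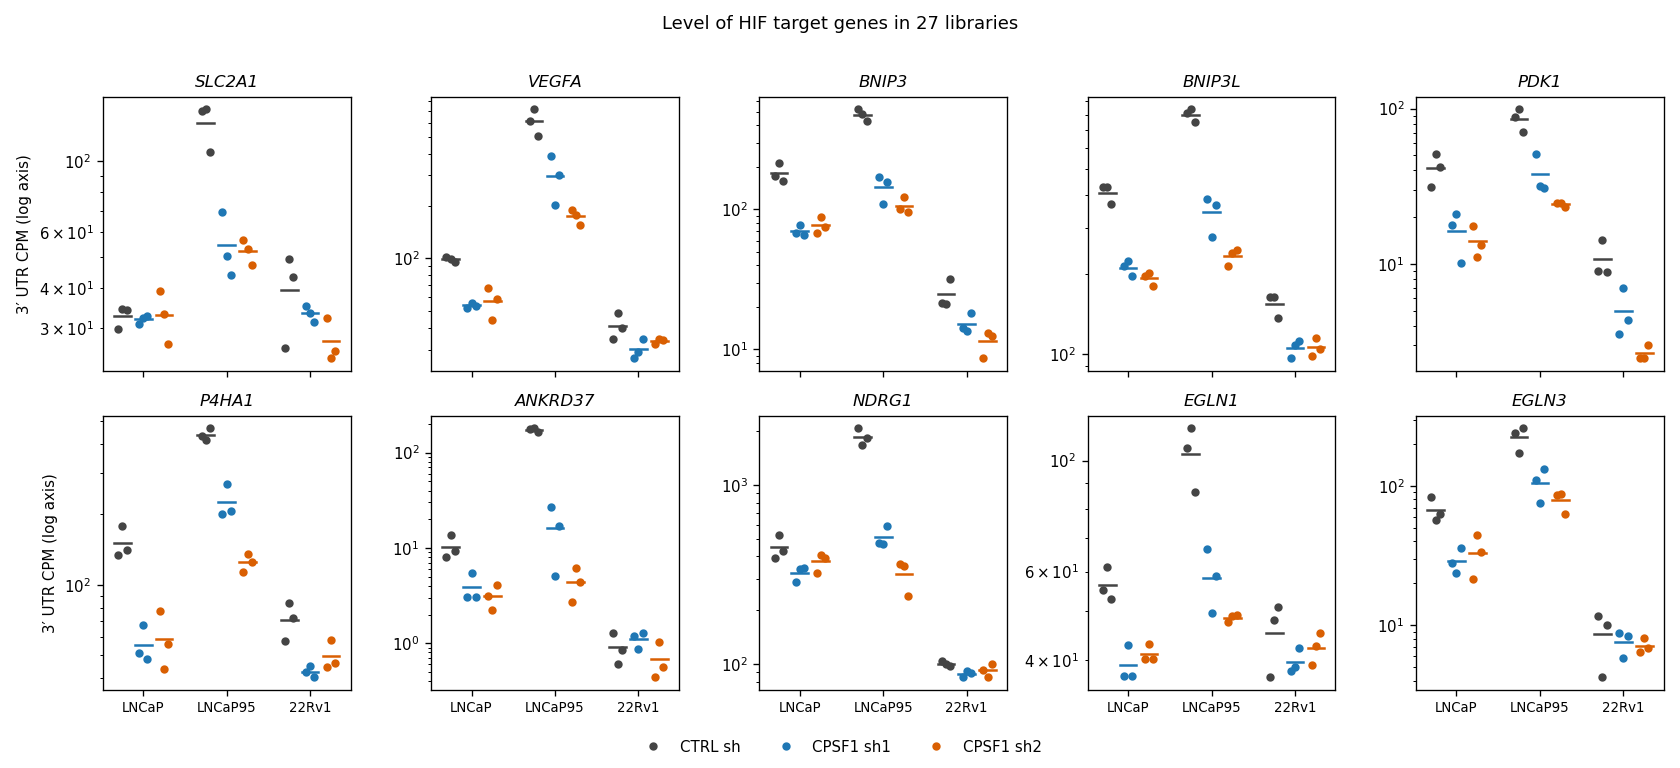
3′ UTR level of each HIF target in each library, in CPM on a log axis, with 1 panel per gene, points for the 27 libraries by cell line and hairpin, and bars at group means. In LNCaP95 every knockdown point lies under every control point in all 10 panels, and the 22Rv1 points overlap for most genes.

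SLC2A1 encodes the glucose transporter GLUT1, the entry point of glucose into most cells. Its counted 3′ UTR lay between 43390752 and 43396107 on the minus strand of chromosome 1 (GRCh37, as for all counted regions). In LNCaP95, controls held 144, 146 and 107 CPM, CPSF1 sh1 libraries 69.2, 50.4 and 44 CPM, and CPSF1 sh2 libraries 56.7, 53.2 and 47.3 CPM. The groups did not overlap, and SLC2A1 fell to 40.5% of the control level (log2 fold change -1.30 ± 0.151, adjusted p = 6.19e-06). In LNCaP, controls of 29.8, 34.4 and 34.2 CPM stood beside 30.9, 32.2 and 32.6 CPM with CPSF1 sh1 and 39.2, 33.2 and 26.6 CPM with CPSF1 sh2. These groups overlapped fully, and the log2 fold change was -0.0053 ± 0.156 (adjusted p = 0.985), a value whose sign changed with the scaling. In 22Rv1 the values ran from 25.9 to 49.5 CPM in controls and from 24.1 to 35.1 CPM after knockdown, with a log2 fold change of -0.44 ± 0.186 (adjusted p = 0.294).

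VEGFA encodes the secreted growth factor that drives new vessel formation, the best-known ligand among HIF targets. Its 3′ UTR lay between 43752284 and 43754524 on the plus strand of chromosome 6. LNCaP controls held 102, 99.7 and 95.8 CPM, against 52, 55.7 and 53.6 CPM with CPSF1 sh1 and 67.4, 44.2 and 58.8 CPM with CPSF1 sh2. LNCaP95 controls held 619, 720 and 504 CPM, against 388, 203 and 302 CPM with CPSF1 sh1 and 190, 177 and 156 CPM with CPSF1 sh2. In both lines all knockdown libraries lay below all controls, and VEGFA fell to 56.6% of control in LNCaP (-0.82 ± 0.135, adjusted p = 0.00036) and to 38.6% in LNCaP95 (-1.37 ± 0.219, adjusted p = 0.000139). In 22Rv1, controls of 34.3 to 48.6 CPM overlapped knockdown libraries of 26.8 to 34.6 CPM, and the log2 fold change of -0.38 ± 0.151 did not pass the test (adjusted p = 0.254).

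BNIP3 and BNIP3L are related outer-membrane proteins that mark mitochondria for removal by autophagy. The BNIP3 3′ UTR lay between 133781278 and 133784137 on the minus strand of chromosome 10. Its controls held 173, 215 and 159 CPM in LNCaP, against 67.5, 77.4 and 66.2 CPM with CPSF1 sh1 and 68.3, 89 and 75 CPM with CPSF1 sh2. In LNCaP95, controls of 523, 482 and 429 CPM stood against 171, 109 and 158 CPM with CPSF1 sh1 and 101, 122 and 96.7 CPM with CPSF1 sh2. In 22Rv1, where the transcript was scarce, controls held 21.4, 21.1 and 31.8 CPM, CPSF1 sh1 libraries 14.1, 13.4 and 18.3 CPM, and CPSF1 sh2 libraries 8.64, 13 and 12.5 CPM. BNIP3 thus separated the groups in all 3 lines. It fell to 40.7% of control in LNCaP (-1.30 ± 0.136, adjusted p = 3.38e-06), to 26.6% in LNCaP95 (-1.91 ± 0.164, adjusted p = 2.26e-07) and to 52.4% in 22Rv1 (-0.93 ± 0.224, adjusted p = 0.0497).

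BNIP3L, counted between 26265599 and 26363452 on the plus strand of chromosome 8, followed its relative. Controls held 428, 426 and 368 CPM in LNCaP, and the 6 knockdown libraries held 181 to 224 CPM. In LNCaP95, controls of 814, 842 and 754 CPM stood against 387, 278 and 367 CPM with CPSF1 sh1 and 215, 241 and 247 CPM with CPSF1 sh2. In 22Rv1, controls of 164, 165 and 137 CPM stood against 96.7, 108 and 112 CPM with CPSF1 sh1 and 98.7, 115 and 105 CPM with CPSF1 sh2. The groups were again apart in every line, and the log2 fold changes were -0.99 ± 0.115, -1.47 ± 0.163 and -0.55 ± 0.118 in LNCaP, LNCaP95 and 22Rv1 (adjusted p = 1.12e-05, 3.9e-06 and 0.0244).

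PDK1 encodes pyruvate dehydrogenase kinase 1, which keeps pyruvate out of the mitochondrial citric acid cycle. Its 3′ UTR intervals lay between 173428787 and 173490123 on the plus strand of chromosome 2. Controls held 31.3, 51.1 and 41.9 CPM in LNCaP, against 17.7, 20.9 and 10.2 CPM with CPSF1 sh1 and 17.5, 11.1 and 13.3 CPM with CPSF1 sh2. In LNCaP95, controls of 88.8, 99.3 and 70.4 CPM stood against 50.9, 31.6 and 30.8 CPM with CPSF1 sh1 and 24.8, 24.8 and 23.2 CPM with CPSF1 sh2. In 22Rv1, controls of 9.06, 14.2 and 8.83 CPM stood against 3.53, 6.99 and 4.33 CPM with CPSF1 sh1 and 2.49, 2.47 and 2.99 CPM with CPSF1 sh2. No library crossed between groups in any line. PDK1 fell to 36.8%, 36.3% and 34.2% of control in LNCaP, LNCaP95 and 22Rv1, with log2 fold changes of -1.44 ± 0.217, -1.46 ± 0.2 and -1.55 ± 0.335 (adjusted p = 0.00015, 3.24e-05 and 0.0274).

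P4HA1 encodes the catalytic alpha subunit of the hydroxylase that modifies proline in collagen. It was counted between 74766675 and 74767979 on the minus strand of chromosome 10. Controls held 134, 178 and 141 CPM in LNCaP and 431, 417 and 467 CPM in LNCaP95, against 43.7 to 77.2 CPM and 114 to 269 CPM after knockdown. In 22Rv1, controls of 57.6, 83.6 and 72.2 CPM stood against 42.4, 45.1 and 40.3 CPM with CPSF1 sh1 and 44.4, 58.3 and 46.5 CPM with CPSF1 sh2. The 22Rv1 groups overlapped by that single CPSF1 sh2 library, whereas those of the other lines were apart. The P4HA1 3′ UTR count fell by 1.38 ± 0.163, 1.32 ± 0.202 and 0.64 ± 0.151 on the log2 scale in LNCaP, LNCaP95 and 22Rv1 (adjusted p = 1.36e-05, 9.73e-05 and 0.0434). In controls of these lines the 3′ UTR held a mean of 13.5%, 43.6% and 10.4% of the gene's reads. The 10 kb region held 74.7%, 30.5% and 81.1%, so these falls concern only a part of its reads.

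ANKRD37, an ankyrin-repeat protein, had the lowest fold change of the set in LNCaP95. It was counted between 186320152 and 186321695 on the plus strand of chromosome 4. LNCaP95 controls held 949, 858 and 809 reads (177, 180 and 166 CPM), CPSF1 sh1 libraries 140, 22 and 85 reads (27, 5.04 and 16.9 CPM), and CPSF1 sh2 libraries 8, 32 and 20 reads (2.72, 6.1 and 4.38 CPM). The highest knockdown library thus lay far under the lowest control, and the level fell to 6.22% of control (-4.01 ± 0.381, adjusted p = 6.62e-07). LNCaP controls held 8.05, 13.6 and 9.19 CPM and knockdown libraries 2.21 to 5.51 CPM, a fall of 1.51 ± 0.313 on the log2 scale (adjusted p = 0.00257). In 22Rv1 each library held 2 to 8 reads (0.439 to 1.29 CPM), under the filter of a mean of 2 CPM, so a change was not detectable at this depth.

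NDRG1, a stress-induced protein linked to differentiation and restrained growth, was counted between 134249114 and 134270664 on the minus strand of chromosome 8. LNCaP95 controls held 2080, 1680 and 1830 CPM, against 474, 472 and 594 CPM with CPSF1 sh1 and 365, 355 and 242 CPM with CPSF1 sh2. NDRG1 fell there to 22.5% of control (adjusted p = 2.93e-07). In LNCaP, controls of 394, 526 and 429 CPM stood beside 287, 339 and 344 CPM with CPSF1 sh1 and 325, 410 and 394 CPM with CPSF1 sh2, and the log2 fold change was -0.35 ± 0.133 (adjusted p = 0.0757). The LNCaP groups overlapped only through CPSF1 sh2 libraries. In 22Rv1, controls of 98.2 to 104 CPM overlapped knockdown libraries of 84.6 to 101 CPM, with a log2 fold change of -0.16 ± 0.116 (adjusted p = 0.602).

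EGLN1 and EGLN3 encode the prolyl hydroxylases PHD2 and PHD3, which act on the HIF alpha subunit and are themselves HIF targets. EGLN1, counted between 231499197 and 231502156 on the minus strand of chromosome 1, held 55.2, 61.4 and 52.9 CPM in LNCaP controls and 37.1 to 43.1 CPM after knockdown, and 106, 116 and 86.6 CPM in LNCaP95 controls and 47.5 to 66.5 CPM after knockdown. The groups were apart in both lines, and EGLN1 fell to 71.4% of control in LNCaP (-0.49 ± 0.133, adjusted p = 0.0157) and to 52.3% in LNCaP95 (-0.94 ± 0.143, adjusted p = 9.58e-05). The LNCaP call was lost with CPSF1 sh2 alone (adjusted p = 0.122) and without CTRL sh replicate 2 (adjusted p = 0.0928). In 22Rv1 the ranges of 36.9 to 50.9 and 37.9 to 45.2 CPM overlapped, with a log2 fold change of -0.17 ± 0.141 (adjusted p = 0.645).

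EGLN3, counted between 34393137 and 34419511 on the minus strand of chromosome 14, held 83.5, 56.8 and 62.8 CPM in LNCaP controls and 21.3 to 44.2 CPM after knockdown. In LNCaP95, controls of 242, 173 and 260 CPM stood against 63.2 to 132 CPM. EGLN3 fell by 1.12 ± 0.192 in LNCaP (adjusted p = 0.000535) and by 1.28 ± 0.186 in LNCaP95 (adjusted p = 6.08e-05) on the log2 scale, with no overlap in either line. In 22Rv1, controls spread from 4.22 to 11.6 CPM around knockdown libraries of 5.82 to 8.71 CPM, with a log2 fold change of -0.19 ± 0.298 (adjusted p = 0.84) whose sign turned (0.03) without CTRL sh replicate 3.

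**Figure D2:**
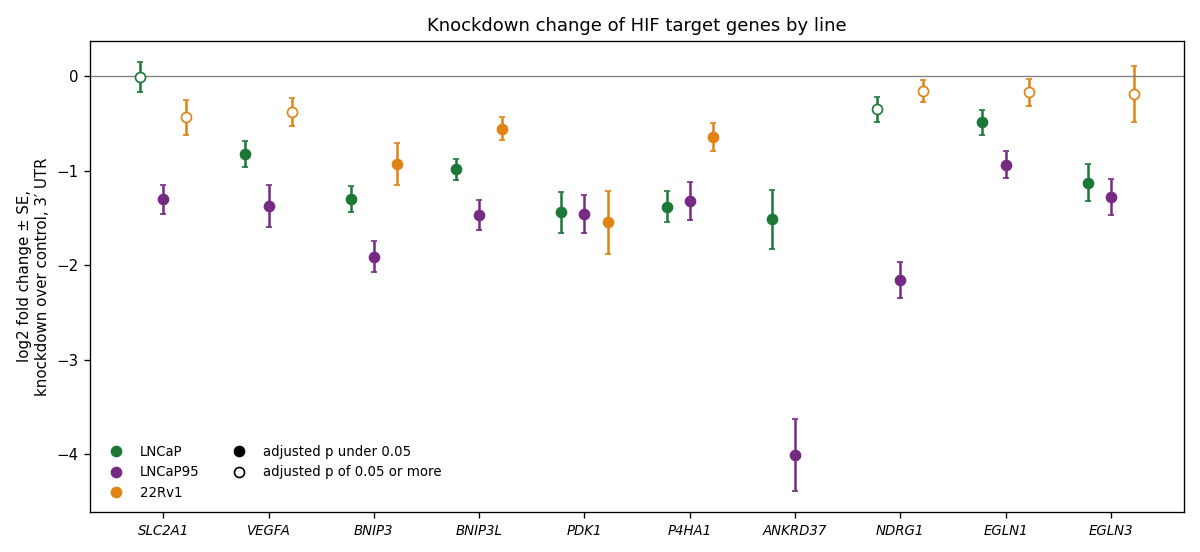
Log2 fold change of the 3′ UTR count after CPSF1 knockdown (6 libraries against 3 controls) for each HIF target in each line, with error bars of 1 SE and filled symbols at an adjusted p under 0.05. All plotted values lie below 0, from -4.01 for ANKRD37 in LNCaP95 to -0.0053 for SLC2A1 in LNCaP, and ANKRD37 in 22Rv1 was not tested.

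Each hairpin was also compared with the controls alone. CPSF1 sh1 lowered 9, 10 and 0 members in LNCaP, LNCaP95 and 22Rv1, against 12.8%, 7.48% and 0.00874% of all genes. In 22Rv1, 5 members had an unadjusted p under 0.05 with this hairpin, all with lower values, and CPSF1 itself had an adjusted p of 0.41. CPSF1 sh2 lowered 7, 10 and 2 members, against 6.15%, 16.2% and 1.21%, and the 22Rv1 pair was BNIP3 (adjusted p = 0.0325) and PDK1 (adjusted p = 0.00978). A direct comparison of CPSF1 sh2 with CPSF1 sh1 by edgeR called 0 members in each line, with 0.0363%, 0% and 0.0174% of all genes called lower and 0%, 0% and 0.0348% higher. In LNCaP95 all 10 members had lower values with CPSF1 sh2, and 7 of them had an unadjusted p under 0.05, beside 0 in LNCaP and 1 in 22Rv1. The shares of all genes at that unadjusted threshold were not computed, so these counts are not read as particular to the members. The lowest adjusted p among the members in LNCaP95 was 0.471, and the log2 differences there included -0.84 for P4HA1 and -1.83 for ANKRD37.

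The lines also differed in these genes without knockdown. Among control libraries, 10 of 10 members were higher in LNCaP95 than in LNCaP, against 19.1% of all genes. The log2 differences were 4.05 ± 0.204 for ANKRD37 (adjusted p = 3e-10), 2.62 for VEGFA, 2.05 for NDRG1, 2.00 for SLC2A1, 1.73 for EGLN3, 1.53 for P4HA1, 1.38 for BNIP3, 1.04 for PDK1, 0.98 for BNIP3L and 0.86 for EGLN1. In 22Rv1 controls, 8 of 10 members were lower than in LNCaP controls (23.2% of all genes), the others being SLC2A1 (0.31, adjusted p = 0.248) and EGLN1 (-0.29, adjusted p = 0.194). All 10 were lower in 22Rv1 than in LNCaP95 controls (26.5%), from -1.15 for EGLN1 to -4.74 for EGLN3 in 9 of them and -7.64 for ANKRD37, which held 2 to 4 reads in each 22Rv1 control. Both 22Rv1 counts include ANKRD37, which passed the filter only through the other lines. Its differences from 22Rv1 are therefore not read as a result. For BNIP3, BNIP3L, PDK1, P4HA1, NDRG1, VEGFA and EGLN3 the order of control levels was thus LNCaP95, LNCaP, 22Rv1, with each step past the test. SLC2A1 and EGLN1 did not differ beyond their spread between LNCaP and 22Rv1. No low-oxygen culture is described for any line. In the differences that involve LNCaP95, the part of the medium cannot be told apart from the line.

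Line-by-knockdown terms tested whether the size of the change differed between lines. Between LNCaP95 and LNCaP, SLC2A1 (-1.29 ± 0.234, adjusted p = 0.000378), NDRG1 (-1.80 ± 0.234, adjusted p = 3.22e-06) and ANKRD37 (-2.48 ± 0.572, adjusted p = 0.00467) fell further in LNCaP95, 3 of 10 members against 4.41% of all genes. Without CPSF1 sh1 replicate 1 of LNCaP95, 7 members were called. Between 22Rv1 and LNCaP95, 8 of 10 members fell less in 22Rv1, against 5.31%, with PDK1 (-0.09 ± 0.371) and P4HA1 (0.68 ± 0.283, adjusted p = 0.123) not called. That count was 3 when libraries were scaled by their summed reads. The count of 8 includes ANKRD37, whose difference of 4.08 rests on 2 to 8 reads per 22Rv1 library. That gene passed the filter only through the other lines, so its difference is not read as a result. Between 22Rv1 and LNCaP, edgeR called 0 members (3.13% of all genes higher and 1.98% lower), and BNIP3L, P4HA1 and EGLN3 had an unadjusted p under 0.05. For PDK1 all 3 terms were close to 0 beside their errors, at -0.01 ± 0.366, -0.10 ± 0.388 and -0.09 ± 0.371.

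To determine whether these genes lost reads at sites beyond their annotated ends as well, the 10 kb downstream of each gene was examined. There, 2 members fell and 1 rose in LNCaP (5.2% and 9.52% of all genes), 3 fell and 1 rose in LNCaP95 (10.1% and 17.6%), and 2 fell and 0 rose in 22Rv1 (2.73% and 7.26%). For the last count, DESeq2 also called 0 and 1 member, BNIP3L, had an unadjusted p under 0.05. The BNIP3L region held 0 reads in each 22Rv1 control against 0 to 6 after knockdown. It passed the filter only through its knockdown libraries, so its change is not read as a result. BNIP3 fell in the 10 kb region of all 3 lines (-1.22, -1.60 and -1.25) and so did P4HA1 (-0.69, -1.14 and -0.78), beside medians of 0.132, 0.219 and 0.189 over all 10 kb regions. The P4HA1 calls were lost in each line when libraries were scaled by their reads over the 4 tables (-0.20, -0.24 and -0.22), whereas the BNIP3 calls were not. The main values are relative to the other 10 kb regions of the same table. With the other scaling, the median 10 kb region had log2 fold changes of 0.624, 1.31 and 0.601, and of all calls 91.5%, 94.7% and 97.4% were higher, against 64.7%, 63.4% and 72.6%. The 10 kb of P4HA1 (74756676 to 74766675 on chromosome 10) holds the processed pseudogene RPL17P50 on the same strand, so reads there can come from that sequence.

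PDK1 showed the opposite movement in its downstream region. In LNCaP95, its 10 kb counts were 22, 17 and 14 reads (67.5, 63.9 and 43.3 CPM) in controls, 63, 64 and 54 reads (129, 123 and 103 CPM) with CPSF1 sh1 and 42, 83 and 70 reads (83.1, 134 and 133 CPM) with CPSF1 sh2. All 6 knockdown libraries lay above all 3 controls, as 18.3% of 10 kb regions did, and the region rose by 0.96 ± 0.329 on the log2 scale (adjusted p = 0.0206) while the 3′ UTR fell. The call was lost with CPSF1 sh1 alone (adjusted p = 0.094) and without CTRL sh replicate 3 (adjusted p = 0.113). In LNCaP, controls held 8 to 15 reads and knockdown libraries 11 to 35 (0.58 ± 0.395, adjusted p = 0.364), and in 22Rv1 8 to 18 and 20 to 49 reads (-0.13 ± 0.375, adjusted p = 0.884). The call of NDRG1 in LNCaP rested on 1, 0 and 0 control reads against 1 to 13, too few for a fold, and the region passed the filter only through its knockdown libraries. SLC2A1 fell in LNCaP95 (-2.70) on 4 to 16 control reads against 0 to 6.

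The ratio of 10 kb to 3′ UTR counts was tested directly. It rose for 3 of 9 members in LNCaP (8.39% of all genes), 7 of 10 in LNCaP95 (21.2%) and 0 of 7 in 22Rv1 (6.65%) by edgeR, with 2 members, BNIP3L and PDK1, at an unadjusted p under 0.05 in 22Rv1. The 10 kb regions of NDRG1 in LNCaP, among the calls, and of BNIP3L in 22Rv1 passed the filter only through their knockdown libraries. BNIP3L held 0 reads in each 22Rv1 control against 0 to 6. Neither rise is therefore read as a result. PDK1 (2.04 in LNCaP and 2.46 in LNCaP95) and ANKRD37 (3.12 and 4.38) were called in both lines, although ANKRD37 held only 0 to 5 control reads in the LNCaP 10 kb. EGLN1 (1.05) was called in LNCaP95. The other calls rested on few 10 kb reads. For VEGFA (1.80) and NDRG1 (3.57) in LNCaP95 the controls held 1 to 9 and 1 to 7 reads. NDRG1 in LNCaP, and BNIP3L and EGLN3 in LNCaP95, had at most 3 reads in each control (0 to 1, 0 to 3 and 1 to 3, against 1 to 13, 2 to 7 and 2 to 10 after knockdown), so no ratio is given for them. The LNCaP count ranged from 0 to 3 when a library was left out, with 0 without CTRL sh replicate 2 and 1 without CTRL sh replicate 3, and the LNCaP95 count from 3 to 7, with 3 without CTRL sh replicate 3.

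The share of a gene's reads that fell in its 10 kb region does not depend on the scaling between tables. In LNCaP, the PDK1 share was 7.19%, 2.84% and 6.91% in controls, 22.9%, 12.4% and 24.1% with CPSF1 sh1 and 27.1%, 22.9% and 27.7% with CPSF1 sh2. In LNCaP95 it was 3.74%, 3.16% and 3.26% in controls, 15.5%, 24.1% and 21% with CPSF1 sh1 and 26.9%, 31.3% and 33.3% with CPSF1 sh2. The groups were apart in both lines (5.64% ± 2.44 to 22.9% ± 5.55, and 3.39% ± 0.312 to 25.4% ± 6.63, SD, exact permutation p = 0.0119 each), whereas 22Rv1 controls at 45%, 13.6% and 17.2% overlapped knockdown libraries at 31.8% to 56.6% (exact permutation p = 0.0833). The share of EGLN1 went from 3.75% to 7.73% in LNCaP, from 2.8% to 10.4% in LNCaP95 and from 8.06% to 12.3% in 22Rv1 (exact permutation p = 0.0119, 0.0119 and 0.0476). P4HA1 went from 74.7% to 86.3%, from 30.5% to 50% and from 81.1% to 83.3% (exact permutation p = 0.0119 each), and BNIP3 from 23.9% to 34.1% (exact permutation p = 0.0357), from 18.5% to 32.4% (exact permutation p = 0.0119) and from 35.2% to 40.9% (exact permutation p = 0.345). In LNCaP95 the ANKRD37 share went from 0.762% to 30.1% (exact permutation p = 0.0476) with 10 kb counts of 5 to 9 reads in controls and 11 to 16 after knockdown, while the 3′ UTR counts went from 809–949 to 8–140 reads. Over 30 such two-sided tests, not adjusted for their number, 17 were under 0.05, all with a higher share, as 6, 8 and 3 in LNCaP, LNCaP95 and 22Rv1. A higher share at that threshold was also found for 17.5%, 34.3% and 24% of all genes with a mean above 2 CPM over the 4 tables and a read in every library, and the mean share was higher after knockdown for 72.9%, 78.7% and 75.9% of them. The 22Rv1 count of 3, out of 9 members that passed this filter, was thus near the background. In these tests 0.0119 is the smallest p that 3 against 6 libraries allow. For members other than PDK1, BNIP3, P4HA1, EGLN1 and ANKRD37 the share was at most 5.38% in every library.

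**Figure D3:**
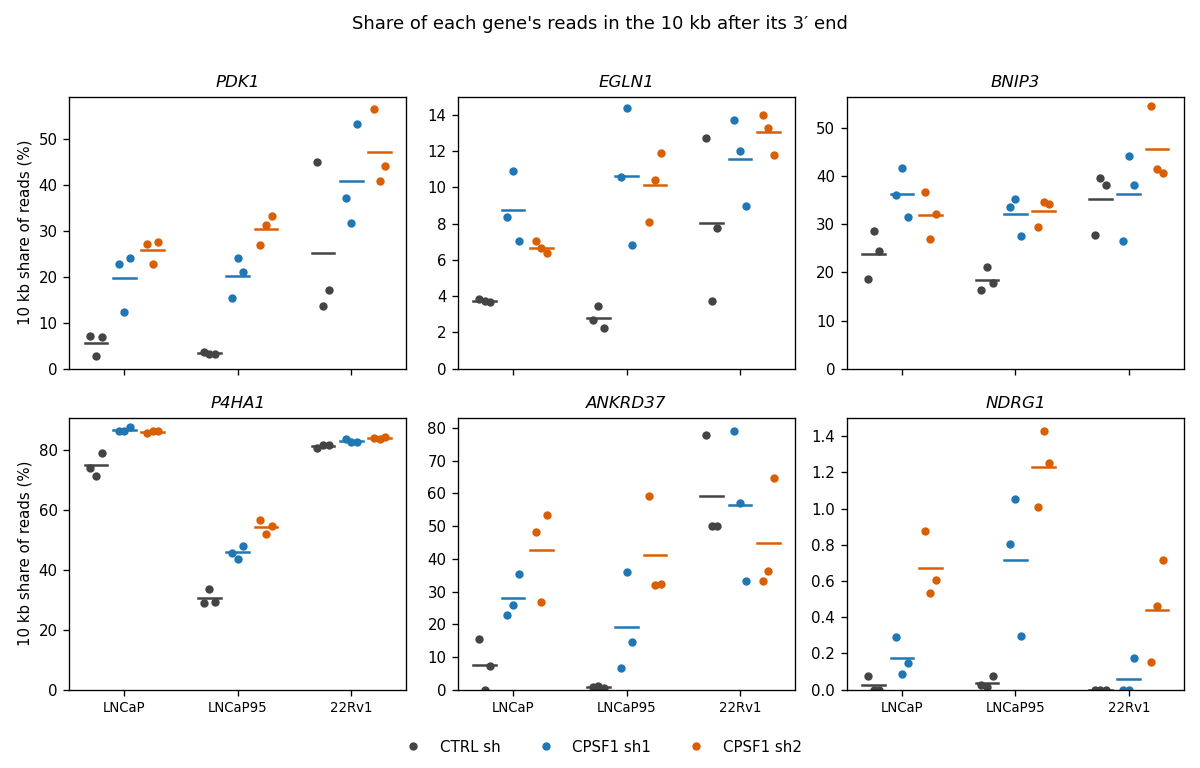
Share of a gene's reads over the 4 tables that lay in its 10 kb downstream region, in percent, for 6 HIF targets, with 1 point per library and bars at group means. PDK1 and EGLN1 knockdown points lie above every control point in LNCaP and LNCaP95.

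Intron and CDS counts divided the members. In LNCaP95 introns, 6 members fell (10.8% of all genes) and BNIP3L rose (0.70 ± 0.167, adjusted p = 0.00281, where 13% of all genes rose). VEGFA intron counts were 192, 77 and 129 reads in controls and 4 to 15 after knockdown (-3.50 ± 0.271), ANKRD37 124, 39 and 81 against 1 to 12 (-4.19 ± 0.406), and NDRG1 34, 25 and 72 against 2 to 8 (-2.94 ± 0.393). These 3 genes thus lost intron reads as well as 3′ UTR reads, as did BNIP3 (-1.48), P4HA1 (-1.16) and SLC2A1 (-0.84). In LNCaP introns BNIP3 (-0.87) and P4HA1 (-0.46) fell (5.62%), and BNIP3L (0.62) and EGLN3 (0.69) rose (8.7%). ANKRD37 was called higher there too, on 0, 0 and 1 control reads against 0 to 15, but passed the filter only through its knockdown libraries. None of these was called higher when libraries were scaled by their summed reads. In 22Rv1 introns 0 members were called by edgeR (1.75% of all genes lower and 2.62% higher), with SLC2A1 and BNIP3L at an unadjusted p under 0.05. In the CDS, 4 of 4 tested members fell in LNCaP (3.31% of all genes), 3 of 4 did in LNCaP95 (4.99%) and 1 of 3 did in 22Rv1 (0.445%), with BNIP3 called in every line (-1.44, -1.60 and -0.92). The LNCaP count includes PDK1, on 18, 3 and 11 control reads against 0 to 2 after knockdown. Its CDS passed the filter only through the controls, so that fall is not read as a result. Summed over the 4 tables, 7, 10 and 2 members fell (13.5%, 16.8% and 2.99%). In LNCaP the ANKRD37 call was lost (-0.41, adjusted p = 0.226, against -1.51 in the 3′ UTR) and P4HA1 kept its call at a smaller change (-0.36 against -1.38). In 22Rv1 the calls of PDK1 (-0.52, adjusted p = 0.187, against -1.55) and P4HA1 (-0.30, adjusted p = 0.135, against -0.64) were lost, and those of BNIP3 (-0.89) and BNIP3L (-0.46) were not. In LNCaP95 all 10 members were called lower, from -0.85 for EGLN1 to -3.78 for ANKRD37.

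**Figure D4:**
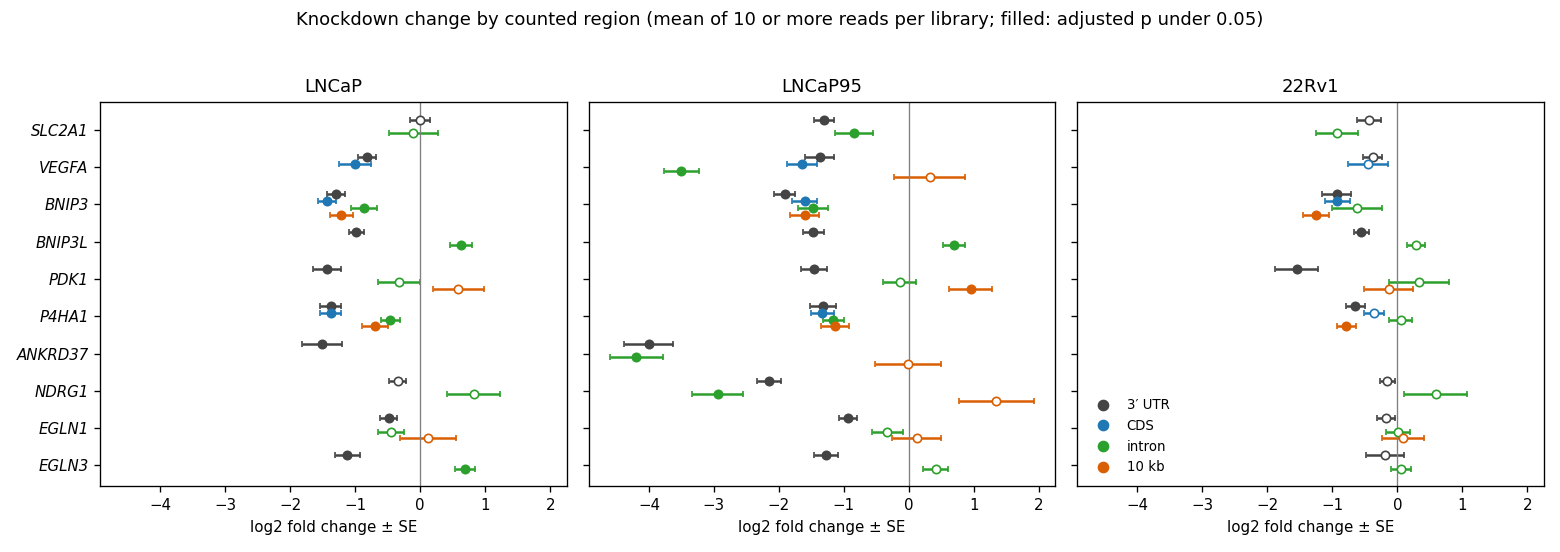
Log2 fold change after knockdown in the 3′ UTR, CDS, intron and 10 kb counts of each HIF target, by line, with error bars of 1 SE, for regions with a mean of at least 10 reads per library. BNIP3 and P4HA1 values lie below 0 in all 4 regions in LNCaP and LNCaP95, and PDK1 lies below 0 in the 3′ UTR and above 0 in the 10 kb region of those lines.

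The wider pathway was read from lists that leave out the 10 members. Of 26 other HIF targets, 13 of the 20 tested in LNCaP fell, as did 22 of the 24 in LNCaP95 and 1 of the 21 in 22Rv1, against 10.1%, 15.2% and 0.791% of all tested genes, with 0 called higher by edgeR in each (1, 0 and 0 at an unadjusted p under 0.05), and medians of -0.784, -1.38 and -0.279 beside 0.0151, 0.0138 and -0.0083 over all tested genes. The lowest values were for NDUFA4L2, a mitochondrial protein that lowers respiration (-4.45), PLOD2, a collagen lysyl hydroxylase (-3.37), and PFKFB4 (-1.91) in LNCaP, and for HILPDA, which acts on lipid droplets (-3.54), BHLHE40, a transcriptional repressor (-2.92), and the glucose transporter SLC2A3 (-2.58) in LNCaP95. NDUFA4L2 was the 1 gene of that list that fell in 22Rv1 (-2.57), and it fell in LNCaP95 too (-1.77). The next largest changes in that line, of TMEM45A (-0.85, adjusted p = 0.279) and PFKFB3 (0.60, adjusted p = 0.561), did not pass the test. Of 17 glycolysis genes, 8, 14 and 2 fell in LNCaP, LNCaP95 and 22Rv1, against the same shares of all genes, with medians of -0.442, -0.91 and -0.159. HK1, the hexokinase gene singled out after its values were seen, was the 1 that rose (0.50 in LNCaP). ALDOC (-2.06, -2.71 and -1.21) and PGK1 (-1.19, -1.80 and -0.60) fell in all 3 lines. Other large changes of that list were those of the enolase gene ENO2 in LNCaP (-2.62) and LNCaP95 (-2.24) and of the phosphofructokinase gene PFKP in LNCaP (-1.25), while the lactate dehydrogenase gene LDHA had -0.52 in 22Rv1 (adjusted p = 0.0523). The medians of the 10 members and of the other HIF targets were thus lower than those of the glycolysis list in each line, a difference that was not tested. These lists were chosen with results of these data known.

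The regulators of HIF were described in the same way. Of 17 genes for HIF subunits, VHL complex members and coactivators, 2 of 13 tested fell and 2 rose in LNCaP, 3 of 14 fell and 0 rose in LNCaP95 (1 at an unadjusted p under 0.05 and above 0) and 0 of 14 were called in 22Rv1 by edgeR (1 at an unadjusted p under 0.05), with medians of 0.265, -0.0626 and -0.0683. In LNCaP 10.1% of all genes fell and 8.24% rose and in LNCaP95 15.2% fell, so these counts lie near the background and the genes below are given as values. ARNT, the stable HIF partner, fell in LNCaP (-0.70, adjusted p = 0.00626) and LNCaP95 (-0.44, adjusted p = 0.0269). SIAH1, a ubiquitin ligase that targets prolyl hydroxylases, had -0.51 in LNCaP (adjusted p = 0.0471), -0.74 in LNCaP95 (adjusted p = 0.00669) and -0.27 in 22Rv1 (adjusted p = 0.578), and its relative SIAH2 fell in LNCaP95 (-0.77). The LNCaP count of 2 lower genes was 1 in 7 of the 9 fits that left out a library, all but those without CPSF1 sh1 replicate 3 or CPSF1 sh2 replicate 3, and 0 to 2 over the other alternatives. RBX1 (0.58, adjusted p = 0.0182) and CUL2 (0.51, adjusted p = 0.0478), subunits of the VHL ubiquitin ligase, rose in LNCaP. The coactivator genes EP300 in LNCaP95 (0.51, adjusted p = 0.0564) and CREBBP in 22Rv1 (0.43, adjusted p = 0.184) were not called, nor was ARNT2 in 22Rv1 (-0.33, adjusted p = 0.797). HIF1A, which like CUL2 and VHL was singled out after its values were seen, had log2 fold changes of 0.31, -0.15 and -0.08 (adjusted p = 0.144, 0.556 and 0.886). VHL was not called in any line (-0.05, 0.26 and 0.21).

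**Figure D5:**
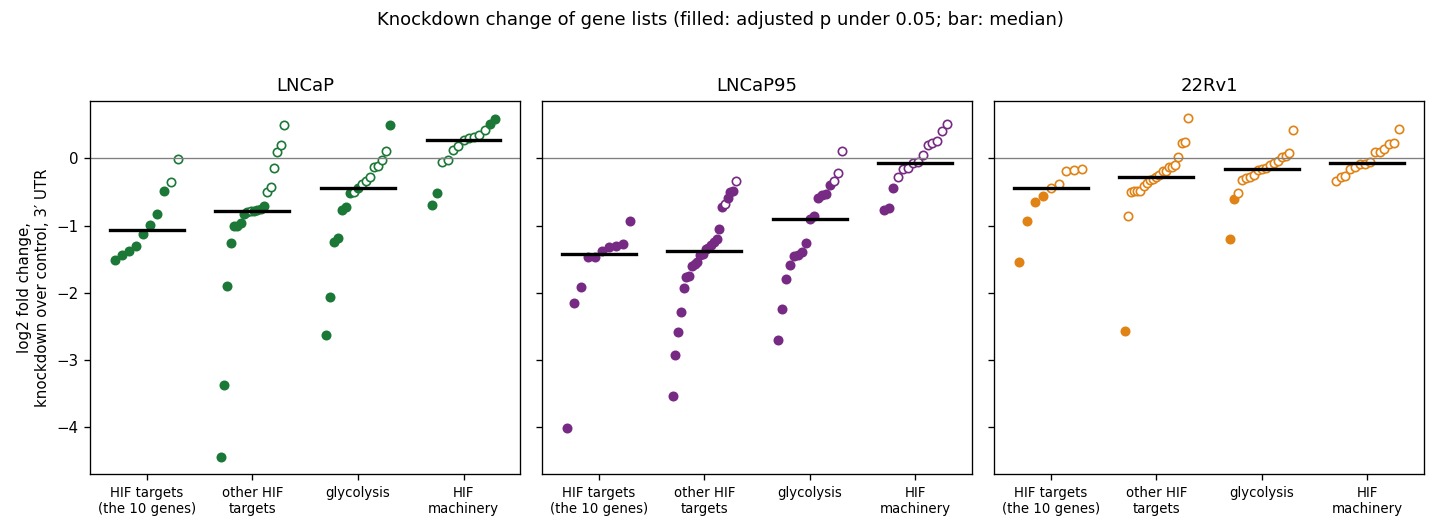
Log2 fold changes of 3′ UTR counts after knockdown for the HIF target genes, glycolysis genes, other HIF targets and HIF machinery, by line, with 1 point per tested gene and a bar at each median. The medians of the HIF targets are -1.06, -1.42 and -0.435, and those of the HIF machinery lie between -0.0683 and 0.265.

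For each member, the gene outside the set with the most similar 3′ UTR level was found over the 27 libraries, after the mean of each line was subtracted. Among 7400 candidate genes, Pearson's r of log2(CPM + 1) was 0.971 between BNIP3L and the glycolytic kinase gene PGK1, 0.955 between BNIP3 and PGK1, and 0.933 between VEGFA and PGK1. EGLN1 (0.961) and ANKRD37 (0.948) were nearest to C4orf3. PDK1 was nearest to CTBS (0.957), NDRG1 to JUND (0.944), EGLN3 to MKNK2 (0.935), P4HA1 to IRF2BP2 (0.93) and SLC2A1 to WEE1 (0.868). The libraries share their line and hairpin, so these values describe a common pattern and carry no test.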

How the data were processed

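The 4 deposited tables held unnormalized counts of reads for each gene and library. By the methods, poly(A) reads were trimmed with DPAC, mapped to hg19 and counted on the gene's strand by their 3′-most base in protein-coding regions: 3′ UTRs extended by 300 bases, CDS, introns, and 10 kb downstream. The submitters' processing notes name HISAT2 2.1.0, Subread 2.0.3 and GRCh37. Reads primed inside A-rich sequence can add to intron and 10 kb counts, and a 10 kb region can hold ends of neighbouring genes: that of BNIP3L overlaps DPYSL2 on the same strand.

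All 27 columns were matched to samples by title, with 0 left over. Counts were tested in R 4.3.3 with the quasi-likelihood test of edgeR 4.0.16 (TMM scaling within each table and line, genes with a mean above 2 CPM, 3 control against 6 knockdown libraries, Benjamini-Hochberg adjustment over all tested genes, threshold 0.05). The ratio of 10 kb to 3′ UTR counts was tested as a region-by-knockdown term, line differences as line-by-knockdown terms over 27 libraries, and control libraries were compared between lines. Printed CPM were scaled over all 27 libraries, whereas fold changes were scaled within a line. The share of a gene's reads in its 10 kb region was tested by exact permutation of the libraries (two-sided). Likeness was Pearson's r of log2(CPM + 1) after line means were subtracted, among genes with a mean above 10 CPM in each line. DESeq2 1.42.0, other scalings and filters, single hairpins and left-out libraries were alternatives. The models were also run on simulated counts that gave every gene the same spread setting. Such runs cannot show how the models behave with the spread of these libraries. Whether replicate numbers pair the samples was not settled, and the main tests used no pairing. No columns were identical, and replicates differed by more than counting noise. Any PCR copies cannot be separated from molecules, so floors of 3 reads cover counting error only.

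Named genes were the 10 members, CPSF1, the genes nearest to each member, and in each list the genes called in all 3 lines and the 3 with the largest change per line. The members and lists were chosen with earlier results of these data known.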

Additional observations from a re-analysis of the deposited data

Results flagged for a closer look

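In each line, the 6 knockdown libraries of each member were checked for 1 library far from the rest, a check that in groups of this size picks out about 5% by chance. Of 30 such checks, 2 stood out. PDK1 was at 50.9 CPM in CPSF1 sh1 replicate 1 of LNCaP95, above the next library at 31.6 CPM, and P4HA1 was at 58.3 CPM in CPSF1 sh2 replicate 2 of 22Rv1, above the next at 46.5 CPM.

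Of 30 tests of a difference in the knockdown change between lines, 11 passed. SLC2A1 (-1.29), ANKRD37 (-2.48) and NDRG1 (-1.80) fell further in LNCaP95 than in LNCaP on the log2 scale. The change in 22Rv1 was above that in LNCaP95 for SLC2A1 by 0.88, VEGFA by 1.01, BNIP3 by 0.987, BNIP3L by 0.925, ANKRD37 by 4.08, NDRG1 by 2.01, EGLN1 by 0.776 and EGLN3 by 1.11, all of them genes that fell in LNCaP95. The ANKRD37 value rests on 2 to 8 reads per 22Rv1 library. That gene passed the filter only through the other lines, so its value is not read as a result. What lies behind these differences was not tested.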

How the results depend on the processing

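Over all alternatives fixed for the 3′ UTR, 10 members fell in LNCaP95 and 7 to 9 in LNCaP, also with 1 library left out, and none rose. In 22Rv1 the count of 4 became 2 with over 2 CPM required in every library, 0 with CPSF1 sh1 alone, 2 with CPSF1 sh2 alone and 1 with libraries scaled by their summed reads without TMM, and ran from 0 to 5 with 1 library left out. That scaling moved the median of all genes in LNCaP from 0.0151 to 0.164, and the share of calls that were higher from 45% to 67.6% there and from 46.2% to 34.3% in 22Rv1. It lost EGLN1 in LNCaP (adjusted p = 0.135). In LNCaP, SLC2A1 turned to 0.019 with CPSF1 sh2 alone and to 0.14 with summed reads, and ran from -0.072 to 0.049 with 1 library left out. EGLN3 in 22Rv1 ran from -0.54 to 0.032.

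In the 10 kb table, summed reads left 1 member lower in each line and 2 higher in LNCaP95. The higher count of 1 in LNCaP became 0 with DESeq2, without a filter on low counts, with over 2 CPM in every library, with the replicate block and with CPSF1 sh1 alone, and that of LNCaP95 became 0 with CPSF1 sh1 alone. With 1 library left out, the lower count ran from 1 to 2 and the higher from 0 to 2 in LNCaP, and the higher from 1 to 2 in LNCaP95. EGLN1 turned to -0.31 in LNCaP and -0.14 in LNCaP95 with CPSF1 sh2 alone, PDK1 in 22Rv1 to 0.13 with CPSF1 sh1 alone and 0.33 with summed reads, and ANKRD37 in LNCaP95 to 0.050 without a filter and 0.052 with CPSF1 sh1 alone. Signs also turned with 1 library left out, where EGLN1 ran from -0.11 to 0.22 in LNCaP, from -0.14 to 0.45 in LNCaP95 and from -0.20 to 0.25 in 22Rv1, VEGFA from -0.20 to 0.81 and ANKRD37 from -0.25 to 0.24 in LNCaP95, and PDK1 from -0.46 to 0.49 in 22Rv1. The DESeq2 size factors lowered the share of calls that were higher in 22Rv1 from 72.6% to 63.9%.

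Alternatives chosen after seeing the data gave these values. With summed reads, 0 members rose in LNCaP introns, 2 had a higher ratio in 22Rv1, and 3 differed between 22Rv1 and LNCaP95. With 1 library left out, the ratio count ran from 0 to 3 in LNCaP, 3 to 7 in LNCaP95 and 0 to 1 for 22Rv1, the lower intron count in LNCaP from 1 to 2, the higher one in LNCaP95 from 1 to 2, and the count between LNCaP95 and LNCaP from 3 to 7. The causes were not tested.

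Same-numbered libraries correlated by -0.417 to 0.608 after group means were removed, and libraries of different numbers by -0.614 to 0.595. Ranges this wide do not settle whether the numbers pair the libraries. With the replicate block, 8, 10 and 3 members fell in LNCaP, LNCaP95 and 22Rv1, BNIP3 in 22Rv1 missed the threshold (adjusted p = 0.0522), and ANKRD37 in the 10 kb of LNCaP95 turned to 0.0015. Depth limited ANKRD37 in 22Rv1 and the 10 kb counts of SLC2A1, VEGFA, BNIP3L, NDRG1 and EGLN3 in all lines.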
